A study of Mus musculus with 4 samples.

Results

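The genes described here are 43 NF-kB and early-response inflammatory genes, followed through the response of mouse macrophages to IL-4 with and without OGT, an enzyme that adds the sugar O-linked N-acetylglucosamine to proteins of the nucleus and cytoplasm. They were chosen by name as a list, with earlier results of these data known. All 43 were found among the 52476 gene names in the data. The list holds 5 NF-kB subunits, 5 proteins of the IkB family, 8 signalling and feedback proteins, 7 cytokines, 5 chemokines and acute-phase proteins, 5 effectors and surface proteins, and 8 immediate-early and stress genes. RNA-seq was done on bone marrow-derived macrophages of 2 genotypes, wild type (WT) and OGT knockout, each at 0 h and after 24 h of IL-4. Cells of both genotypes had been grown from bone marrow with 20 ng/mL of the growth factor M-CSF for 7 days, and IL-4 was used at 20 ng/mL. The 0 h cultures carry the same IL-4 tag as the others and were taken, by their time, to be cells that had not met IL-4. No culture held for 24 h without IL-4 is labelled, so IL-4 and time in culture cannot be told apart. The sources used here do not give the Cre driver, the deleted part of Ogt, the age and sex of the animals, or whether animals were pooled.

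Each of the 4 groups is 1 library. No difference below can be set against a spread between cultures, no test was possible, and all values describe these 4 libraries only. Levels are in FPKM, fragments counted per unit of transcript length and library depth, and can be compared between genes. A difference is the log2 ratio of FPKM + 1, with the later time over 0 h or the knockout over WT. A gene was kept in a comparison where at least 1 of its libraries reached 1 FPKM, and a kept gene is counted as higher or lower where the difference is at least 2-fold. Of the 43 genes, 37 reached 1 FPKM in at least 1 library and 6 stayed under it in all 4: Traf1, Il6, Il12b, Cxcl1, Cxcl3 and Nos2.

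NF-kB is a family of transcription factors that sit in the cytoplasm of resting cells, bound by IkB proteins. Signals from Toll-like, TNF and IL-1 receptors lead to destruction of IkB, and the freed dimers enter the nucleus and switch on cytokine and chemokine genes together with genes of their own inhibitors, such as Nfkbia and Tnfaip3, which close a negative feedback loop. Immediate-early genes such as Fos, Jun and Ier3 need no new protein synthesis and are switched on by many stimuli. IL-4 acts through another route, the transcription factor STAT6, and drives macrophages toward a state marked by Arg1 and Retnla. Several NF-kB subunits are known to carry O-linked N-acetylglucosamine.

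Ogt stood at 27.4 FPKM in WT and 14.2 FPKM in the knockout at 0 h, and at 29.8 and 14.4 FPKM at 24 h. The knockout libraries thus kept Ogt transcript, a level that includes any exons left outside the deleted part. Mgea5 encodes the enzyme of the opposing reaction. It stood at 31.4 and 14.9 FPKM at 0 h in WT and knockout, and at 23.4 and 10.6 FPKM at 24 h. Arg1 was at 0.12 and 0.07 FPKM at 0 h in WT and knockout, and at 240.4 and 219.5 FPKM at 24 h. Macrophage markers were abundant, with Csf1r between 610 and 885 FPKM, and their summed level over 8 genes was lower at 24 h than at 0 h in both genotypes, 8 of 8 genes being lower in each. At the depth estimated for these libraries, 1 FPKM of a 2 kb transcript stands for at most 43.8 fragments. Markers of neutrophils were also high: the 11 genes summed to 3374.3 and 1096.8 FPKM in WT (0 h and 24 h) and to 2184.5 and 736.5 FPKM in the knockout. The 9 monocyte markers, among them the IL-4 target Chil3, summed to 421.7, 1868.0, 262.1 and 1376.6 FPKM in the same order. Of the 9, 6 were lower at 24 h in WT and 7 in the knockout, while Chil3 and Fn1 were higher in both. Chil3 alone stood at 333.8 and then 1738 FPKM in WT and at 182.1 and then 1164 FPKM in the knockout. Sums for dendritic cell, B cell, T and NK cell, mast cell, fibroblast and endothelial markers lay between 0.7 and 25.4 FPKM. The highest, for T and NK cells in WT at 0 h, held 24.6 FPKM of Cd4. The B cell sum of 13.9 FPKM in that library held 13.65 FPKM of Cd79b. Klrb1c of NK cells and Tpsb2 of mast cells were at 0 in all 4 libraries. The 10 interferon-stimulated genes summed to 493.4, 47.6, 830.4 and 60.4 FPKM, again in that order. In bulk RNA, fewer cells of a type and less RNA per cell cannot be told apart.

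Because the list is built around one transcription factor, the stretches of DNA upstream of its genes are shown before the values. RefSeq promoters (GRCm38.p6) were matched for 35 of the 43 genes, as windows of 300 bases that start 250 bases before a transcription start. The 8 without a match were Nfkb1, Relb, Nfkbiz, Nos2, Cd83, Ccl5, Map3k8 and Ripk2. A match to the kappa-B consensus, searched on both strands as 3 G, a purine, any 2 bases, 2 pyrimidines and 2 C, was present for 16 of the 35 genes (45.7%). The same search found it in 2581 of 27025 genes with such windows (9.55%). The 16 were Nfkb2, Rel, Nfkbia, Nfkbie, Bcl3, Tnfaip2, Tnfaip3, Tnip1, Il6, Cxcl1, Cxcl2, Cxcl3, Casp4, Sod2, Ier3 and Fos. The 6 stretches below come from 5 genes that differ in these libraries: Nfkbia and Tnip1, lower at 24 h, Ier3, higher at 24 h, Cxcl1, near 0 throughout, and Il1rn, whose windows hold no kappa-B match. They were chosen after the values were seen. Only the bases before the start are printed, 5′ to 3′ on the strand of the gene, and capitals mark the matches found.

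Nfkbia: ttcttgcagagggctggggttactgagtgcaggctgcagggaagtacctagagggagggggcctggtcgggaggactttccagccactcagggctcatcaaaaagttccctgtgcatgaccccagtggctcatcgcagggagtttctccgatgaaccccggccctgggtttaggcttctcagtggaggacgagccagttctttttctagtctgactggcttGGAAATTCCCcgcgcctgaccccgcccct
Tnip1: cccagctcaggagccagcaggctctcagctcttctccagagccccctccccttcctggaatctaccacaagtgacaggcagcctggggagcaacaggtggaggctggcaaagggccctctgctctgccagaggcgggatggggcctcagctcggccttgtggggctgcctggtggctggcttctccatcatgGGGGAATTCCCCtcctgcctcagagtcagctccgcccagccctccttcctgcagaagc
Ier3: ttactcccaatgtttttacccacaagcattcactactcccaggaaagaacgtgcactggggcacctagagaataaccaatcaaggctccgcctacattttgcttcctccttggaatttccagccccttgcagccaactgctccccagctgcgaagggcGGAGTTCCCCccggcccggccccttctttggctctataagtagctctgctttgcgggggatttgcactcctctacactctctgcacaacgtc
Cxcl1: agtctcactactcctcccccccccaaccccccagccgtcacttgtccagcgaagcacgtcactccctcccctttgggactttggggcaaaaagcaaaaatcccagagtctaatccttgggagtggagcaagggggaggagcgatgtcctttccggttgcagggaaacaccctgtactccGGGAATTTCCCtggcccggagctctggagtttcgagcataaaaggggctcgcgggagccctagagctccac
Il1rn, distal start: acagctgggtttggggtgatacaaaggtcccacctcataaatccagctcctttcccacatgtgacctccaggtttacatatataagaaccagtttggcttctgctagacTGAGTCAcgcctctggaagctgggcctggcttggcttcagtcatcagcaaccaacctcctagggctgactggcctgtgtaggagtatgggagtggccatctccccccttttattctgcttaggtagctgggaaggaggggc
Il1rn, proximal start: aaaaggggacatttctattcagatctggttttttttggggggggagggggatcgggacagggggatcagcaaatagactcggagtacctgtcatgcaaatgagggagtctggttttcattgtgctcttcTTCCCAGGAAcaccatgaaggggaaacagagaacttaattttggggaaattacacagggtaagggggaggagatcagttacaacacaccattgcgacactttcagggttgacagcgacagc

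The Nfkbia stretch is chr12:55492648-55492897 (− strand), Tnip1 chr11:54962941-54963190 (−), Ier3 chr17:35821463-35821712 (+) and Cxcl1 chr5:90890995-90891244 (+). Their capitals mark kappa-B matches. With the first transcribed base as 0, the matches lie at −29 to −20 in Nfkbia, −58 to −47 in Tnip1 (3 overlapping matches), −92 to −83 in Ier3 and −71 to −61 in Cxcl1 (2 overlapping matches). Cxcl2 and Cxcl3 hold the same 10 bases as Cxcl1, GGGAATTTCC, at −97 to −88 and −73 to −64. These 3 chemokine genes lie in 1 cluster on chromosome 5, Cxcl1 and Cxcl2 being 10.8 kb apart, so their windows are not independent. In Tnfaip2 the match is GGAGGGCCCC at −24 to −15, inside the annotated first exon of another transcript. The 2 Il1rn stretches are chr2:24336610-24336859 and chr2:24345041-24345290 (+), upstream of separate starts. Capitals mark TGAGTCA, a match to the AP-1 motif TGANTCA, at −141 to −135 in the distal one and TTCCCAGGAA, a match to the STAT6-type motif (TTC, any 4 bases, GAA), at −121 to −112 in the proximal one.

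TGANTCA was found for 6 of the 35 genes (17.1%, against 8.97% of all genes): Il1a, Il1rn, Il6, Nfkb2, Nfkbie and Tnfaip3. The STAT6-type motif was found for Il18, Il1rn and Tnfaip3 (8.6%, against 8.01%). The cyclic AMP response element TGACGTCA was found for Dusp1 alone (2.9%, against 2.03%), and the interferon-response motif (GAAA, any 2 bases, GAAA) for Saa3 alone (2.9%, against 3.99%). These are letter matches within fixed windows and say nothing of binding in these cells.

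In WT macrophages most of the inflammatory members stood lower after 24 h of IL-4 than at 0 h, while several immediate-early genes stood higher. Of the 35 genes kept, 25 had a negative difference and 10 a positive one (52.0% of all genes were positive), with a median of −0.46 against 0.02 for all kept genes. Counted at 2-fold, 8 of 35 were lower (22.9%), against 6.26% of all 11687 genes kept: Nfkbiz, Ccl5, Tnfaip2, Il1b, Irak3, Relb, Cxcl2 and Tnip1. Ripk2 and Ier3 were higher, against 4.76% of all genes. In the knockout, 6 of 36 were lower, against 5.99% of all 11577 genes kept: Nfkbiz, Ccl5, Tnfaip2, Il18, Il1b and Irak3. Ier3, Ripk2 and Il1rn were higher there, against 5.16% of all genes. The median in the knockout was −0.19, against 0.03 for all kept genes, with 22 genes below 0 and 14 above (52.7% of all genes). Both responses counted Nfkbiz, Tnfaip2, Il1b, Ccl5 and Irak3 as lower, 5 of the 37 genes kept in any library (13.5%, against 4.14% of 12000 genes), and Ier3 and Ripk2 as higher (3.53% of all genes). The number counted as lower depends on the scale. With a pseudocount of 5 FPKM it was 3 in WT and 3 in the knockout, and on the TPM scale it was 14 in WT. The count over all genes moved as well. It was 304 of 11687 in WT and 320 of 11577 in the knockout with 5 FPKM. On the TPM scale it was 1299 of 14124 in WT.

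**Figure D1:**
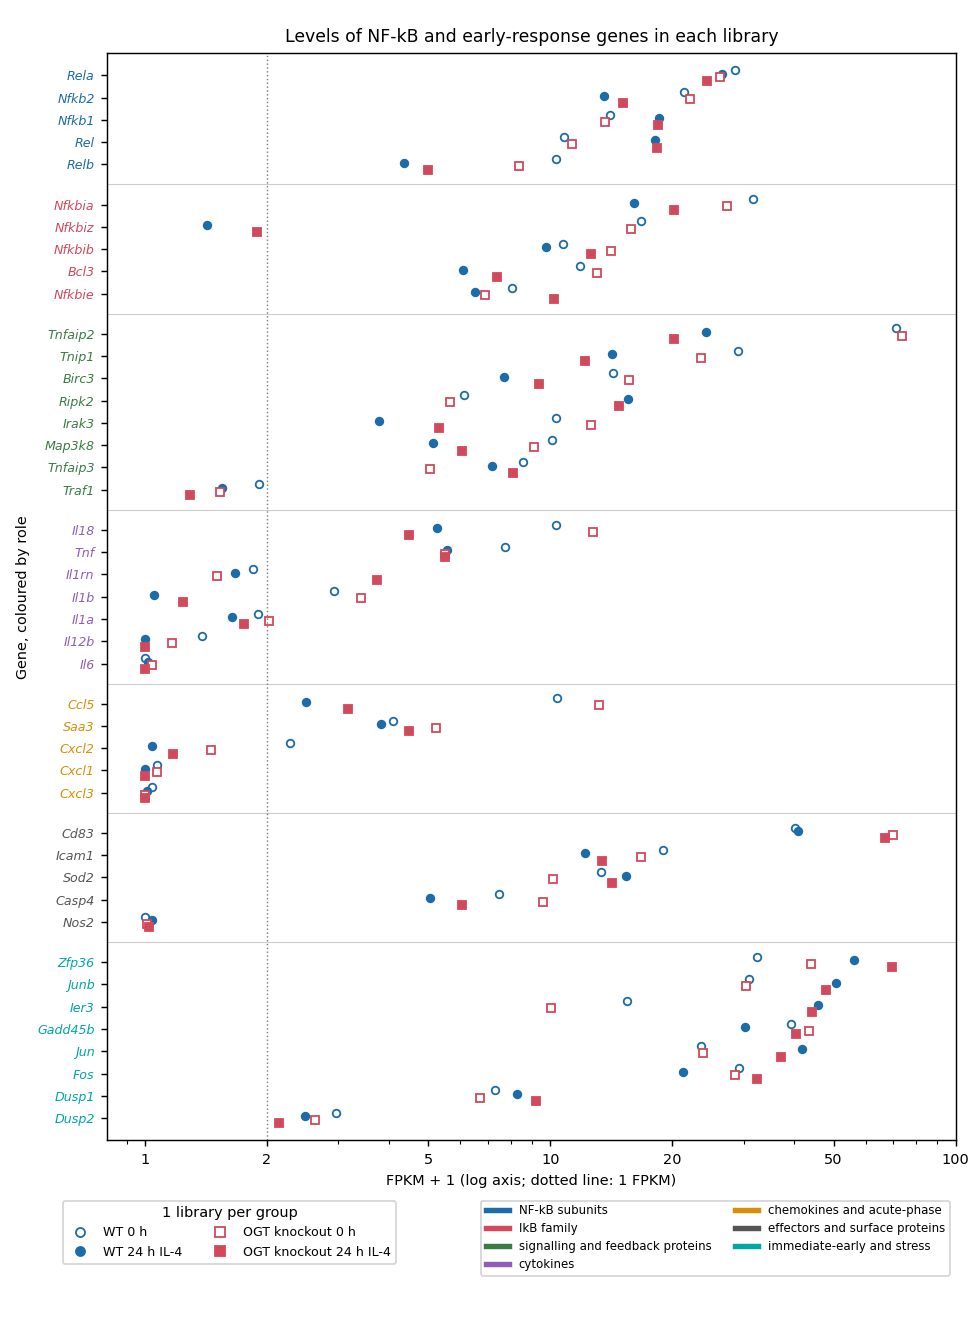
FPKM + 1 on a log axis for each of the 43 genes, grouped and coloured by role, with 1 point per library (circles WT, squares OGT knockout, open 0 h, filled 24 h of IL-4). Nfkbiz stands out with both 24 h points under 1 FPKM and both 0 h points near 15 FPKM. Cd83 has both knockout points above both WT points, as do Nfkbib, Saa3 and Gadd45b.

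Among the NF-kB subunits, only Relb in WT was past 2-fold in either response. Rela, which encodes the p65 subunit, stood at 27.6 FPKM in WT and 25.3 FPKM in the knockout at 0 h, and at 25.5 and 23.4 FPKM at 24 h. Nfkb1, which encodes p105 and its product p50, stood at 13.02 and 12.68 FPKM at 0 h and at 17.6 and 17.4 FPKM at 24 h in WT and knockout. All 4 values of Rela lie within a narrow band, and for Nfkb1 both 24 h libraries are above both 0 h libraries. Rel, which encodes c-Rel, stood at 9.80 FPKM in WT and 10.3 FPKM in the knockout at 0 h and at 17.1 and 17.3 FPKM at 24 h, differences of 0.75 and 0.69. The 2 subunits of the non-canonical branch were lower at 24 h. Nfkb2, which encodes p100 and p52, stood at 20.4 and 21.1 FPKM at 0 h and 12.6 and 14.1 FPKM at 24 h. Relb stood at 9.30 and 7.39 FPKM at 0 h and at 3.35 and 4.0 FPKM at 24 h, differences of −1.24 in WT and −0.75 in the knockout. Relb was thus past 2-fold in WT and short of it in the knockout.

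Of the 5 listed IkB family genes, all stood lower at 24 h in WT (median −0.97) and 4 in the knockout (median −0.44). Among all kept genes, 52.0% stood higher in WT (median 0.02) and 52.7% in the knockout (median 0.03). Nfkbid, an IkB gene from another list, was named after its values were seen. It stood higher at 24 h, at 5.63 and then 10.4 FPKM in WT and 7.70 and then 11.0 FPKM in the knockout. The largest difference of all 43 genes was that of Nfkbiz (ENSMUSG00000035356, GRCm38 chromosome 16, 55811375 to 55838899, − strand), whose product IkB-zeta is a nuclear protein that NF-kB itself induces and that licenses a second set of inflammatory genes. WT had 15.7 FPKM at 0 h and 0.42 FPKM at 24 h, and the knockout had 14.8 FPKM and then 0.88 FPKM. The 24 h level was 2.68% of the 0 h level in WT and 5.96% in the knockout, differences of −3.56 and −3.07. Both 24 h libraries were under 1 FPKM, at an estimated 44.7 and 89.9 fragments, against 1726 and 1491 fragments at 0 h. Nfkbia encodes IkB-alpha, the classical inhibitor and feedback target. It stood at 30.7 and then 15.0 FPKM in WT and at 26.3 and then 19.2 FPKM in the knockout, so that the 24 h level was 49.1% of the 0 h level in WT and 73.0% in the knockout. Bcl3, a nuclear IkB protein that partners p50 and p52, stood at 10.9 and then 5.07 FPKM in WT and at 12.0 and then 6.39 FPKM in the knockout. Nfkbib, which encodes IkB-beta, differed little with IL-4 (9.73 and then 8.74 FPKM in WT, 13.1 and then 11.6 FPKM in the knockout). Nfkbie, which encodes IkB-epsilon, went in opposite directions, from 7.05 to 5.54 FPKM in WT and from 5.89 to 9.23 FPKM in the knockout.

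The signalling and feedback proteins were mostly lower at 24 h, with 6 of 7 kept genes below 0 in WT and 5 of 7 in the knockout. Over all kept genes, 52.0% were above 0 in WT and 52.7% in the knockout. Tnfaip2 (ENSMUSG00000021281, GRCm38 chromosome 12, 111442469 to 111455018, + strand), a TNF-induced gene and the highest of the 43 at 0 h, stood at 70.4 and 72.7 FPKM at 0 h in WT and knockout and at 23.2 and 19.1 FPKM at 24 h. The differences were −1.56 and −1.87, and both 24 h libraries lay far below both 0 h libraries. Irak3, which encodes the inhibitory kinase-like protein IRAK-M, stood at 9.31 and 11.6 FPKM at 0 h and 2.77 and 4.31 FPKM at 24 h (−1.45 and −1.25). Tnip1, which encodes the A20 partner ABIN-1, stood at 28.0 and 22.6 FPKM at 0 h and 13.2 and 11.2 FPKM at 24 h (−1.03 and −0.96). Birc3, which encodes the ubiquitin ligase cIAP2, and Map3k8, which encodes the kinase TPL2, had differences of −0.90 and −0.98 in WT and −0.74 and −0.59 in the knockout. Ripk2, the kinase that relays signals from the NOD receptors, went the other way, from 5.11 to 14.6 FPKM in WT and from 4.66 to 13.8 FPKM in the knockout (1.35 and 1.38). Tnfaip3, which encodes the deubiquitinase A20, stood at 7.58 FPKM in WT and 4.06 FPKM in the knockout at 0 h, and at 6.18 and 7.08 FPKM at 24 h. Its highest and lowest libraries were thus the 2 at 0 h.

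Several of the classical inflammatory cytokine and chemokine genes were near 0 already at 0 h, so their response could hardly be measured. Il6 and Cxcl3 had at most 0.04 FPKM in any library, Cxcl1 at most 0.07 and Nos2, which encodes inducible nitric oxide synthase, at most 0.04. Each of these rests on an estimated 4 fragments or fewer. Il12b, which encodes the shared subunit of IL-12 and IL-23, was listed at 0.38 FPKM in WT and 0.17 FPKM in the knockout at 0 h and at 0 in both 24 h libraries. Il1b, the gene of IL-1 beta, stood at 1.92 and 2.42 FPKM at 0 h and at 0.05 and 0.24 FPKM at 24 h, an estimated 80.0 and 92.4 fragments against 2.0 and 9.3. Its differences on the FPKM + 1 scale, −1.48 and −1.46, understate the ratio of the levels. Ccl5, which encodes the T cell attractant RANTES, stood at 9.40 and 12.2 FPKM at 0 h and 1.5 and 2.16 FPKM at 24 h, 16.0% and 17.7% of the 0 h level, with nearly equal differences of −2.06 in both genotypes. Il18 stood at 9.31 and 11.8 FPKM at 0 h and at 4.26 and 3.47 FPKM at 24 h (−0.97 and −1.51). Tnf stood at 6.71 FPKM in WT at 0 h and between 4.49 and 4.55 FPKM in the other 3 libraries, so WT at 0 h is the library that differs. Cxcl2, a neutrophil attractant, stood at 1.28 FPKM in WT and 0.46 FPKM in the knockout at 0 h and at 0.04 and 0.17 FPKM at 24 h, the last 3 values resting on an estimated 18.8, 1.8 and 7.2 fragments. Saa3, an acute-phase gene, stayed between 2.81 and 4.22 FPKM, and Il1a between 0.63 and 1.02 FPKM.

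Of 8 immediate-early and stress genes, 5 stood higher at 24 h in WT (62.5%, median 0.45) and 6 in the knockout (75.0%, median 0.55). Of all genes 52.0% and 52.7% did so. Only Ier3 was 2-fold higher, and none was 2-fold lower in either. Heat shock genes were also higher: of 5 kept among the 8 listed, 5 were above 0 in WT (3 at 2-fold, median 1.05) and 4 in the knockout (2 at 2-fold, median 0.71). The 8 summed to 333.3 and then 456.1 FPKM in WT and to 382.4 and then 367.8 FPKM in the knockout, and their part in the result was not tested. Ier3 (ENSMUSG00000003541, GRCm38 chromosome 17, 35821684 to 35822923, + strand), a stress-induced regulator of cell survival, stood at 14.4 and 9.06 FPKM at 0 h and at 44.8 and 43.3 FPKM at 24 h in WT and knockout, differences of 1.57 and 2.14. Its 24 h libraries were nearly equal and its 0 h libraries were not. The AP-1 genes Jun and Junb stood at 22.5 and 30 FPKM at 0 h and 40.9 and 49.6 FPKM at 24 h in WT, and at 22.9 and 29.4 FPKM and then 36.2 and 46.9 FPKM in the knockout. Zfp36, which encodes the mRNA-destabilising protein TTP, stood at 31.4 FPKM and then 55.2 FPKM in WT and at 42.9 FPKM and then 68.7 FPKM in the knockout. Fos, the partner of Jun in AP-1, stood at 28.2 FPKM and then 20.3 FPKM in WT but at 27.6 FPKM and then 31.3 FPKM in the knockout. Gadd45b, Dusp1 and Dusp2 differed by 0.46 or less in absolute value in both genotypes. The exons of Jun and Junb overlap those of Junos and Prdx2 on the other strand, and since strandedness is not given, these reads cannot be told apart. The same holds for Nfkb2, Nfkbib, Bcl3, Tnfaip2, Irak3, Il1a, Il1b, Icam1, Zfp36 and Dusp1.

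Effector and surface genes varied modestly with IL-4. Icam1, the adhesion molecule that binds leukocyte integrins, stood at 18.0 FPKM and then 11.2 FPKM in WT and at 15.7 FPKM and then 12.4 FPKM in the knockout. Casp4, the mouse caspase-11 that senses intracellular LPS, stood at 6.46 FPKM and then 4.04 FPKM in WT and at 8.57 FPKM and then 5.05 FPKM in the knockout. Sod2, the mitochondrial superoxide dismutase, had small positive differences of 0.20 and 0.48. Cd83, a surface protein of activated antigen-presenting cells, hardly differed with IL-4 (0.03 and −0.07).

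**Figure D2:**
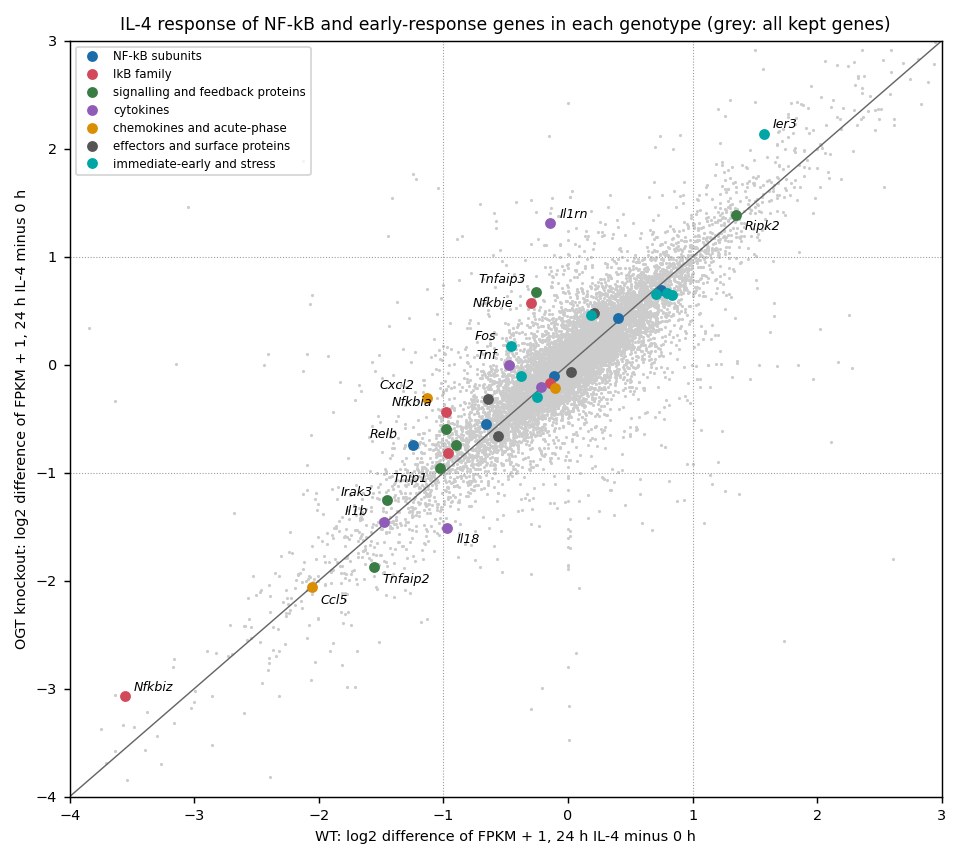
Log2 difference of FPKM + 1, 24 h of IL-4 minus 0 h, in WT (x axis) and OGT knockout (y axis) for the 37 kept genes, coloured by role, over all 12000 kept genes in grey (53 lie outside the axes). Dotted lines mark 2-fold and the diagonal marks equal responses; Nfkbiz lies at the lower left, Ier3 at the upper right, and Il1rn farthest above the diagonal among the coloured points.

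The 2 responses share no library. Across the 37 genes they correlated with Pearson's r of 0.923 and Spearman's rho of 0.891, and 31 of 37 (83.8%) had the same sign. Across all 12000 kept genes the values were 0.859, 0.819 and 83.0%. They run across genes and not across replicates, and the points share their libraries and depth. Neutrophil markers were lower at 24 h in 9 of 11 cases and the 10 interferon-stimulated genes in 10 of 10 cases in both genotypes, alongside the lower inflammatory members, and their part in the result was not tested.

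Without IL-4, none of the 36 genes kept differed by 2-fold between knockout and WT, against 0.880% of all 11479 genes that were higher in the knockout and 0.871% that were lower. The knockout had higher levels for 17 of 36 (47.2%), against 40.5% of all genes, and the median difference was −0.03, against −0.05. At 1.5-fold, a mark chosen after the values were seen, Cd83 was higher (2.78% of all genes) and Tnfaip3, Cxcl2 and Ier3 were lower (3.34% of all genes). Cd83 (ENSMUSG00000015396, GRCm38 chromosome 13, 43784775 to 43803132, + strand) stood at 39.2 FPKM in WT and 69.2 FPKM in the knockout at 0 h, and at 39.97 and 65.8 FPKM at 24 h. The knockout level was 176% and 165% of WT, and both knockout libraries lie above both WT libraries, at an estimated 2180 to 3559 fragments. Nfkbib, Saa3 and Gadd45b also have both knockout libraries above both WT libraries. The share of all genes that do so was not counted. Tnfaip3 (ENSMUSG00000019850, GRCm38 chromosome 10, 19000910 to 19015657, − strand) in the knockout was at 53.6% of WT at 0 h, a difference of −0.76. At the same time point all 10 interferon-stimulated genes were higher in the knockout and 10 of 11 neutrophil markers were lower. Their part in these differences was not tested.

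After 24 h of IL-4, the knockout stood above WT for 21 of 33 genes kept (63.6%), against 41.4% of all genes, with a median of 0.17 against −0.05. By median-ratio scaling, which shifts all genes, the counts were 24 of 33 at 24 h and 20 of 36 at 0 h, against 50.3% and 49.1% of all genes. Only Il1rn was past 2-fold, higher in the knockout (0.832% of all 11302 genes), and none of the 33 was lower (0.619%). At 1.5-fold Il1rn, Cd83, Nfkbie and Fos were higher (2.91% of all genes), and none was lower (2.47%). All 5 genes of the IkB family were higher in the knockout: Nfkbie at 9.23 against 5.54 FPKM (0.65), Nfkbiz at 0.88 against 0.42 FPKM (0.41), Nfkbib at 11.6 against 8.74 FPKM (0.37), Nfkbia at 19.2 against 15.0 FPKM (0.33) and Bcl3 at 6.39 against 5.07 FPKM (0.28). Nfkbiz did not reach 1 FPKM at 24 h and is outside the 33. The subunit genes themselves were close, with Rela at −0.12, Nfkb1 at −0.01, Rel at 0.01, Nfkb2 at 0.16 and Relb at 0.20. At 24 h, 9 of 11 neutrophil markers were lower in the knockout, and 7 of the 9 interferon-stimulated genes kept were higher (median 0.38). Their part in the result was not tested.

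Il1rn (ENSMUSG00000026981, GRCm38 chromosome 2, 24336853 to 24351494, + strand) encodes the IL-1 receptor antagonist, which blocks IL-1 at its receptor. WT had 0.84 FPKM at 0 h and 0.67 FPKM at 24 h, and the knockout had 0.51 FPKM and then 2.73 FPKM. The knockout library at 24 h is the only one above 1 FPKM, with an estimated 306.0 fragments against 55.9 to 101.9 in the others. It was at 407% of WT at 24 h and at 60.0% of WT at 0 h. Of the genes whose products it opposes, Il1a stood at 0.63 FPKM in WT and 0.75 FPKM in the knockout at 24 h, and Il1b at 0.05 and 0.24 FPKM. With a pseudocount of 5 FPKM or a filter at 5 FPKM, Il1rn was no longer counted at 2-fold.

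**Figure D3:**
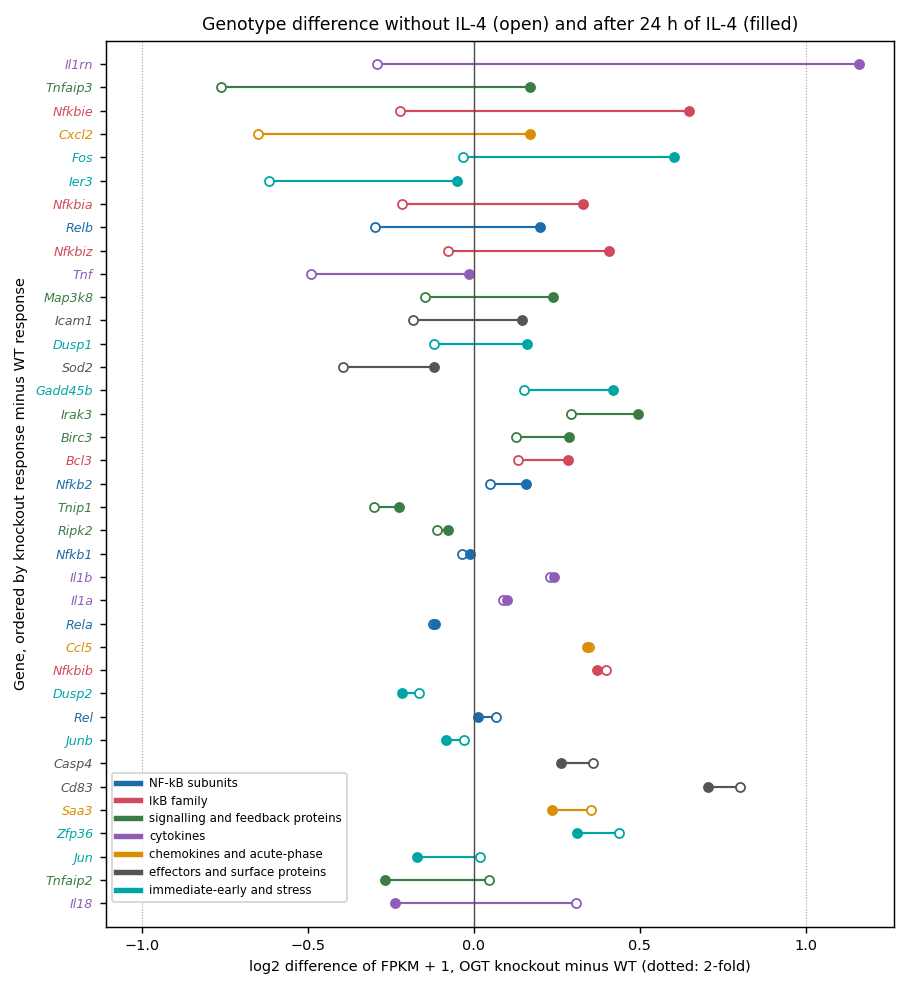
Log2 difference of FPKM + 1, OGT knockout minus WT, at 0 h (open) and after 24 h of IL-4 (filled) for the 37 kept genes, coloured by role and ordered by the knockout response minus the WT response. Lines point rightwards from open to filled for 25 genes, from Il1rn at the top, and Cd83 lies to the right of 0 at both times.

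The difference of responses, the knockout response minus the WT response, uses all 4 libraries and so shares libraries with each comparison above. It was above 0 for 25 of the 37 genes (67.6%), against 50.9% of all 12000 genes, with a median of 0.11 against 0.00. Under median-ratio scaling the count was 24. In the same measure and without the filter, 7 of 9 monocyte markers and 6 of 6 fibroblast markers were above 0. Of those kept, 6 of 8 and 3 of 3 were above 0. The fibroblast markers summed to at most 12.9 FPKM in any library. The interferon-stimulated genes, all kept, were below 0 in 9 of 10 cases (median −0.40). The part of these markers and genes in the result was not tested. Only Il1rn passed 2-fold (1.45). Of all genes 2.43% did so in either direction, 1.27% higher and 1.16% lower. At 1.5-fold Il1rn, Tnfaip3 (0.93), Nfkbie (0.87), Cxcl2 (0.82) and Fos (0.63) were higher (3.82% of all genes) and none was lower (3.11%). Il18 (−0.54) and Tnfaip2 (−0.31) had the lowest values. Of all kept genes, 98.5% had a lower value than Tnfaip3 and 98.2% a lower value than Nfkbie, while 3.6% had a lower value than Il18. By role, the median was 0.49 for the 5 listed IkB family genes, 0.16 for signalling and feedback proteins and 0.11 for immediate-early genes. It was 0.09 for effectors and surface proteins, 0.02 for the NF-kB subunits, 0.01 for cytokines and −0.01 for chemokines and acute-phase genes. Of the 5 listed IkB family genes, Nfkbib was at −0.03. Nfkbid, the IkB gene from another list, was at −0.32.

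For 11 of the 37 genes (29.7%, against 16.4% of all kept genes) the knockout stood below WT at 0 h and above it at 24 h: Relb, Nfkbia, Nfkbie, Nfkbiz, Tnfaip3, Map3k8, Il1rn, Cxcl2, Icam1, Fos and Dusp1. The opposite crossing was seen for Tnfaip2, Il18 and Jun (8.1%, against 15.3%). The knockout was below WT at both times for 9 genes (24.3%, against 42.9%) and above it at both times for 14 (37.8%, against 25.1%). Several of these crossings are small: Dusp1 differed by −0.12 and 0.16, and Fos by −0.03 at 0 h.

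**Figure D4:**
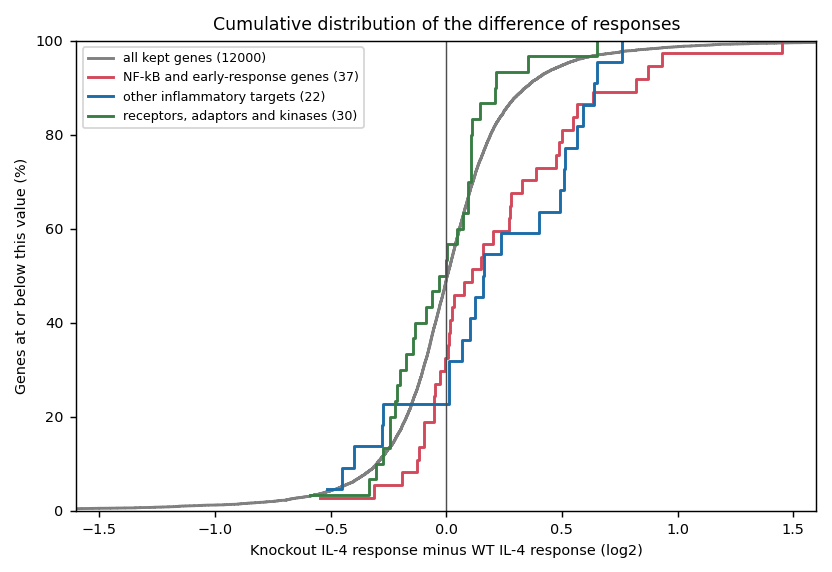
Cumulative distribution of the knockout IL-4 response minus the WT IL-4 response (log2, x axis) as the percent of genes at or below each value (y axis), for the 37 kept NF-kB and early-response genes, 22 other inflammatory targets, 30 receptors, adaptors and kinases, and all 12000 kept genes (92 lie outside the x range). The curves of the first 2 groups run to the right of the curve of all genes from 0 upwards over most of their range, and the receptors, adaptors and kinases have 15 of 30 genes above 0.

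Other genes of the pathway were described from 4 further lists of 95 genes. All 30 receptors, adaptors and kinases that lead to NF-kB were kept in both responses. In WT 1 of 30 was higher (4.76% of all genes) and 1 was lower (6.26%), and in the knockout none passed 2-fold (5.16% and 5.99%). The IL-1 receptor gene Il1r1 stood at 0.18 and then 1.46 FPKM in WT, with differences of 1.06 in WT and 0.97 in the knockout. Irak2, a kinase of the IL-1 and Toll-like receptor pathway, stood at 9.23 and then 3.64 FPKM in WT, with differences of −1.14 and −0.49. Their medians were 0.01 in WT and −0.11 in the knockout. Of 15 other inhibitors and brakes, 3 were higher in both responses (3.53% of all genes) and none was lower in both (4.14%). Irf4, a transcription factor that binds the Toll-like receptor adaptor MyD88, stood at 1.97 and then 46.0 FPKM in WT and at 3.33 and then 58.4 FPKM in the knockout. Socs1, an inhibitor of cytokine receptor signalling, stood at 0.43 and then 18.7 FPKM in WT and at 1.02 and then 14.7 FPKM in the knockout. Tnip3, which encodes the A20 partner ABIN-3, stood at 5.22 and then 21.1 FPKM in WT and at 4.01 and then 23.4 FPKM in the knockout, opposite in direction to Tnip1.

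Of 18 other immediate-early factors, 15 were kept, 5 were higher in both responses (3.53% of all genes) and none was lower in both (4.14%): Myc, Fosl2, Atf3, Egr1 and Jund, the last of them named after its values were seen. Myc stood at 1.98 and then 21.8 FPKM in WT and at 1.55 and then 16.6 FPKM in the knockout, and the AP-1 gene Fosl2 at 2.57 and then 24.0 FPKM and at 2.70 and then 25.4 FPKM. Atf3, a stress-induced repressor of inflammatory genes, stood at 132.9 and then 411.3 FPKM in WT and at 123.7 and then 330.1 FPKM in the knockout. Of 32 other inflammatory targets, 21 were kept in each response. In WT 10 were lower (6.26% of all genes) and 2 higher (4.76%), with a median of −0.81. In the knockout 7 were lower (5.99% of all genes) and 3 higher (5.16%), with a median of −0.51. Lcn2, which encodes an iron-sequestering protein, stood at 50.6 and then 9.02 FPKM in WT and at 35.0 and then 4.77 FPKM in the knockout, and Marcksl1 at 48.9 and then 7.56 FPKM and at 46.9 and then 7.27 FPKM. Clec4e, which encodes the receptor Mincle, stood at 2.59 and then 0.10 FPKM in WT and at 1.83 and then 0.31 FPKM in the knockout. Cd80, a co-stimulatory molecule, stood at 4.44 and then 1.45 FPKM in WT and at 4.84 and then 0.84 FPKM in the knockout. The chemokine genes Ccl7 and Ccl2, the second named after its values were seen, were higher in both responses, Ccl7 at 1.11 and then 14.7 FPKM in WT and at 0.51 and then 8.26 FPKM in the knockout. The difference of responses in this list was above 0 for 17 of 22 genes (77.3%, against 50.9% of all genes). The median was 0.16 and no gene was past 2-fold. This list, like the members, was chosen with earlier results of these data known, so it is not independent of them.

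Further features of the 43 genes were read from the annotation. AU-rich nonamers made of 2 overlapping ATTTA pentamers, which mark many short-lived cytokine transcripts and are bound by TTP, were found in the longest annotated 3′ untranslated region of 6 of the 37 kept genes (16.2%), against 646 of 10047 kept genes (6.4%). Birc3 and Cxcl2 held 4 each, Tnf held 2, and Il1b, Fos and Dusp1 held 1 each. The members also sit near one another in places: Il1a and Il1b are 54.6 kb apart on chromosome 2, Relb and Bcl3 179.0 kb apart on chromosome 7, and Tnf and Ier3 619.7 kb apart on chromosome 17. Neighbours did not share a response in the last pair, since Ier3 was higher at 24 h in both genotypes and Tnf was lower in WT.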

How the data were processed

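Gene levels were taken from the deposited table of 52550 Ensembl genes in 4 libraries. STAR and StringTie, with GRCm38 (mm10), are named in the submitters' processing notes. The deposited values carry no unit name and were read as FPKM from the values, since column totals differ. Symbols came from GENCODE M21 (GRCm38), and 52476 names remained after summing those shared. Raw counts were not used. Depth was estimated from genes with 1 exon, and intervals of counting error do not cover variation between cultures.

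Differences are log2 ratios with a pseudocount of 1 FPKM, kept at 1 FPKM in at least 1 library and counted at 2-fold, over all genes in 5 comparisons. With 1 library per group no test was run and no p-value is given. This scale understates differences of low genes. The members and the lists were chosen with earlier results of these data known. Named genes are all 43 members and, of each other list, up to 4 past 2-fold with the largest differences in each comparison. Promoters were to be those of members lower in both responses, at 10 FPKM or more in both 0 h libraries, with a kappa-B match, and only Tnfaip2 met this. Other genes and promoters are said to have been chosen after the values were seen. Exons of 12 members overlap another gene. The procedure was run on simulated data with counting error only, which cannot show how far cultures differ. Alternatives were pseudocounts of 0.1 and 5 FPKM, no filter, a filter at 5 FPKM, median-ratio scaling, TPM scaling and the highest entry per symbol. Python 3.11.15, numpy 2.4.6 and pandas 2.3.3 were used.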

Additional observations from a re-analysis of the deposited data

Results flagged for a closer look

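For 4 of the 37 genes kept (10.8%) the IL-4 response had opposite directions in the 2 genotypes, with a difference of responses of at least 1.5-fold. The same held for 430 of all 12000 kept genes (3.58%). With 1 library per group these differences were not tested. Il1rn differed by 1.45, being −0.14 in WT and 1.31 in the knockout. Tnfaip3 differed by 0.93, being −0.26 in WT and 0.67 in the knockout. Nfkbie differed by 0.87, being −0.30 in WT and 0.57 in the knockout. Fos differed by 0.63, being −0.46 in WT and 0.18 in the knockout. For Tnfaip3 the knockout stood at 53.6% of WT at 0 h and 115% at 24 h, whereas for Fos it stood at 97.8% and 154%, so the libraries that differ are those at 0 h in the first and those at 24 h in the second.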

How the results depend on the processing

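No paired analysis was possible because each group holds 1 library. Counts and medians recomputed under 7 alternatives gave 126 values. Of these, 110 stayed within 0.1 on the log2 scale or within 1.5 times the count, and 16 moved. A change of direction was looked for only in medians of 2-fold or more. No member median was that large, so this check could not find one. With a pseudocount of 5 FPKM, 3 members were lower and 1 higher in WT (median −0.32), against 304 and 253 of all 11687 genes. In the knockout 3 were lower and 1 higher, against 320 and 272 of 11577 genes. There 0 were higher at 24 h between genotypes (23 of 11302 genes) or in the difference of responses (36 of 12000). Il1rn was short of 2-fold in both. With 0.1 FPKM, 1 was lower in the knockout at 0 h (Cxcl2, −1.32) and 4 were higher in the difference of responses. Of all genes, 236 of 11479 and 372 of 12000 were so counted. On the TPM scale 14 were lower in WT, against 1299 of 14124 genes. At 0 h 1 was lower in the knockout (341 of 14088 genes), and 3 were higher in the difference of responses (482 of 14808). The median in the knockout response was −0.33. Without a filter the WT median was −0.30. With a filter at 5 FPKM, Il1rn was not kept. Then 0 were higher at 24 h between genotypes (55 of 6712 genes) and 0 in the difference of responses (77 of 7336). The cause of the other moves was not tested. Counting error alone is about 15.1 to 15.8% at 1 FPKM and 4.78 to 5.0% at 10 FPKM for a transcript of 2 kb.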
